A study of Danio rerio with 9 samples.

Results

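The response of zebrafish embryos to added bmp2b mRNA was described from 6 of the 9 sequenced samples, the 3 bmp-overexpressing and the 3 uninjected ones, chosen by their labels. All embryos were of the TE strain and were collected at 6.75 hpf (hours after fertilization), when the embryonic shield is visible, with 10 embryos pooled per sample. The bmp-overexpressing embryos had received 10 pg of bmp2b mRNA and the uninjected embryos nothing, so the act of injection and the message injected cannot be told apart in this pair. A further 3 samples had received 100 pg of mRNA for chordin (gene symbol chd), a secreted BMP inhibitor, and serve here to ask which genes changed with bmp and were not called with chordin. The labels do not say that the pools of a group came from separate clutches, so p-values measure the spread between these pools.

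Bone morphogenetic proteins (BMPs) are secreted ligands that bind paired type I and type II receptor kinases, which phosphorylate the Smad proteins that enter the nucleus and switch on target genes. In the fish gastrula BMP activity is highest ventrally, where epidermis and the ventral and tail mesoderm form, and is held low dorsally by antagonists released from the organizer, which allows the neural plate to form. Much of the pathway is its own target, since feedback inhibitors, antagonists and ligands are all switched on by it.

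The 9 libraries held between 8861308 and 22372856 counts, and 12536836 to 15004974 in the bmp-overexpressing against 13621606 to 22372856 in the uninjected ones. Replicates differed from each other by more than counting noise, with a chi-square per degree of freedom of 12.1 to 35.1, so none was a copy of another. Mitochondrially encoded messages took 6.61% to 8.06% of counts with bmp, 4.53% to 8.57% with chordin and 3.33% to 6.31% in uninjected embryos, so the share stood higher in every bmp library than in any uninjected one, and the chd libraries spanned the bmp range. Its part in the other changes was not tested. Leaving these messages out of the fit gave 275 higher and 259 lower genes, beside 288 and 240 with them. Of 6 genes of later tissues, the lens gene cryaa had 0 counts in each of these 6 libraries, rho and mylpfa at most 5 and 9, ins and myhz2 up to 28 and 52, and the muscle gene mylz3 had 58 to 97 counts. Levels are in CPM, read counts scaled to a common library size, here with TMM factors, and a gene was called at an adjusted p (limma, Benjamini-Hochberg) under 0.05. Changes are log2 fold changes of bmp-overexpressing over uninjected embryos, given ± their standard error, with 3 libraries in each group.

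Of 16779 genes tested, 528 (3.15%) were called, 288 (1.72%) of them higher and 240 (1.43%) lower in bmp-overexpressing embryos. The median log2 fold change was 0.94 among the called higher genes and -0.81 among the called lower ones, beside 0.01 over all genes tested. At least a 2-fold change was seen for 137 of the higher and 88 of the lower genes. Called higher genes had a median of 35.2 CPM in uninjected embryos and called lower genes 64.6 CPM, beside 9.26 CPM over all genes tested. The 3 libraries of one group did not overlap those of the other for 276 of the higher and 236 of the lower genes, and over all genes tested 8.92% lay wholly above and 9.03% wholly below. The share called differed with the level, with 0.479% of genes at 1 to 10 CPM called higher and 4.61% of those at 100 to 1000 CPM. Without uninjected replicate 1, 409 genes were called higher and 394 lower.

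**Figure D1:**
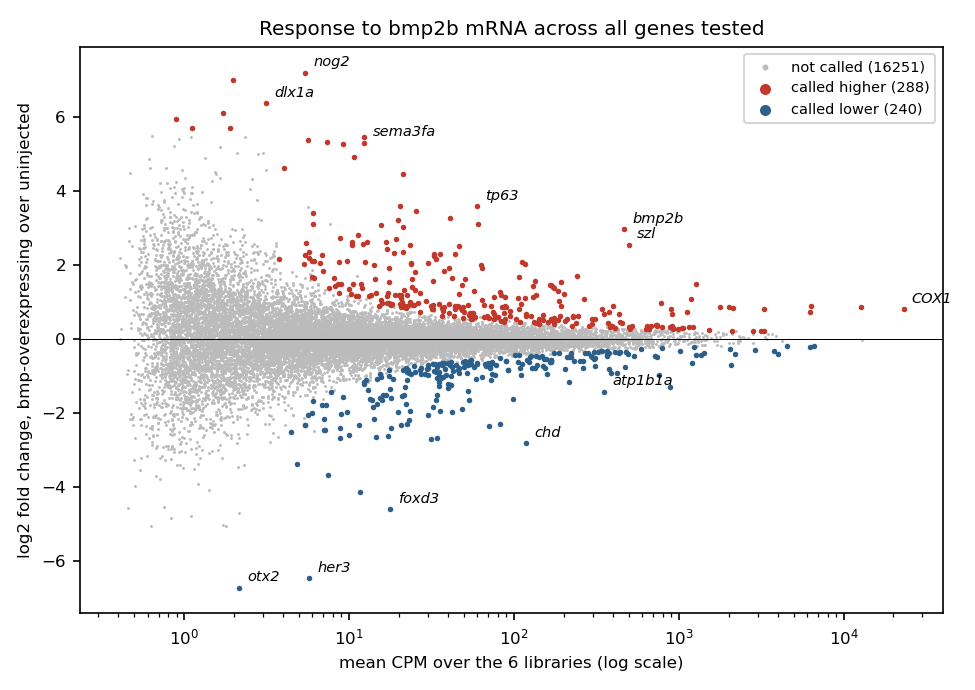
Mean CPM over the 6 libraries (horizontal, log scale) against the log2 fold change of bmp-overexpressing over uninjected embryos (vertical), 1 point per gene tested. The 288 called higher are red, the 240 called lower blue, and large changes at low levels often stayed uncalled.

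The injected message itself was plain to see. Reads of bmp2b (chromosome 20, 45983744 to 45997757, GRCz10) reached 909, 864 and 709.7 CPM in bmp-overexpressing embryos, against 106, 98.7 and 117 CPM in uninjected embryos, a log2 fold change of 2.97 ± 0.11. Injected and endogenous bmp2b reads cannot be told apart. Transcripts of bmp4, a second ventral ligand, were at 142, 143 and 144 CPM with bmp and at 43.9, 76.6 and 88.6 CPM without injection. They rose by 1.1 ± 0.15 on the log2 scale with no overlap between groups (limma, adjusted p = 8.4e-06). In pooled embryos, more cells of a type and more RNA per cell cannot be told apart. The ligand gene admp, which is expressed in the organizer, was at 8.64, 9.59 and 4.3 CPM with bmp and 45.7, 32.1 and 34.2 CPM in uninjected embryos and fell to a log2 fold change of -2.31 ± 0.31 (limma, adjusted p = 3.4e-06). bmp7a, the usual partner of bmp2b in the active dimer, was not called, with a log2 fold change of -0.13 ± 0.17.

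Among 11 genes for BMP receptors and signal-carrying Smads, 2 were called higher and 0 lower, both of them Smad genes. Of smad1 there were 35.4, 40.4 and 37.2 CPM in bmp-overexpressing embryos and 6.30, 10.5 and 11.8 CPM in uninjected embryos. It rose by 2.02 ± 0.25 on the log2 scale, and each bmp library stood far above each uninjected one (limma, adjusted p = 7e-07). smad9 rose by 2.34 ± 0.27 (limma, adjusted p = 2.3e-07), although its locus range overlaps that of rfxap and whether the pair shares reads was not tested. smad5, the maternally supplied member of the same group, was not called, at 210.4, 221 and 248 CPM with bmp and 184, 220.2 and 192 CPM in uninjected embryos. None of the receptor genes tested was called by limma at an adjusted p under 0.05, and 4 of the 11 genes of the list had an unadjusted p under 0.05.

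Of 11 intracellular feedback inhibitors, 4 were called higher and 0 lower. smad6b, an inhibitory Smad, was at 20.8, 24.8 and 19.4 CPM with bmp, against 2.1, 3.53 and 6.28 CPM in uninjected embryos, and rose by 2.62 ± 0.37. Its close relative smad6a rose by 1.65 ± 0.18 and smad7 by 1.57 ± 0.13, again without overlap between the groups (limma, adjusted p = 8.8e-08 and 1.3e-10). bambia, which encodes a receptor-like protein without a kinase, was at 1107, 988 and 978 CPM with bmp and 456, 559.7 and 574 CPM in uninjected embryos, a smaller rise of 0.96 ± 0.079. The median of the 11 members was 0.58.

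The extracellular regulators split, with 3 higher and 3 lower of 15. szl (sizzled), an inhibitor of the proteases that cleave Chordin, was at 807, 876 and 853 CPM with bmp and 141, 141 and 155 CPM in uninjected embryos, a rise of 2.55 ± 0.089 on the log2 scale (limma, adjusted p = 6.7e-20). chd (chromosome 15, 46557787 to 46594810) was at 26.8, 34.8 and 25.8 CPM with bmp and at 193, 216 and 217 CPM in uninjected embryos, and fell to a log2 fold change of -2.83 ± 0.16. Every bmp library held less than each uninjected one by a wide margin. The 2 noggin genes of the list that were called, which encode BMP antagonists, went opposite ways. nog2 had 166, 134 and 140 counts in bmp-overexpressing embryos and 0, 1 and 2 counts in uninjected embryos. nog1 was at 3.95, 1.33 and 6.85 CPM with bmp and 17.8, 10.1 and 13.9 CPM in uninjected embryos, a log2 fold change of -2.03 ± 0.47 (limma, adjusted p = 0.0084), and was no longer called without bmp-overexpressing replicate 2 (adjusted p = 0.142). The nog2 call (adjusted p = 0.0044) was likewise lost without uninjected replicate 2 or 3 (adjusted p = 0.094 and 0.0577).

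Of the 5 Id genes, which encode dominant-negative helix-loop-helix proteins and are classical Smad targets, 3 were called higher. id4 was at 36.7, 32.9 and 39.8 CPM with bmp and 8.46, 1.5 and 3.03 CPM in uninjected embryos, a rise of 3.59 ± 0.41. id2a rose by 1.14 ± 0.15, at 129, 120.3 and 109.8 CPM with bmp and 37.6, 62.3 and 66.9 CPM in uninjected embryos (limma, adjusted p = 3.9e-06). id2b was at 120, 165 and 149 counts with bmp and 0, 6 and 27 counts in uninjected embryos, and its call was lost without uninjected replicate 2 or 3 (adjusted p = 0.094 and 0.13). id1, with 531, 432 and 398 CPM with bmp and 475, 547 and 451 CPM in uninjected embryos, was not called, nor was id3, with 115, 114 and 89.2 CPM with bmp and 84.2, 87.0 and 94.6 CPM in uninjected embryos. Their 95% intervals of the log2 fold change were -0.32 to 0.06 and 0.01 to 0.53, so a 2-fold change of either lay outside.

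The ventral homeobox repressors ved, vent and vox, which keep organizer genes off ventrally, did not move together. ved was at 1452, 1674 and 1690 CPM with bmp and 718, 774 and 795 CPM in uninjected embryos, a log2 fold change of 1.08 ± 0.067 (limma, adjusted p = 1.7e-13). vent was lower, at 22.4, 20.4 and 16.1 CPM with bmp and 35.8, 40.6 and 37.8 CPM in uninjected embryos and a log2 fold change of -0.96 ± 0.20 (limma, adjusted p = 0.0027). vox was at 295, 311 and 274 CPM with bmp and 314, 308 and 293 CPM in uninjected embryos and was not called. With chordin all 3 were called lower, at log2 fold changes of -1.88 for ved, -1.5 for vent and -0.59 for vox. vent was not called between bmp- and chd-overexpressing embryos. The vent and vox rows, with 3391 and 36005 counts over the 9 libraries, carry the same locus range (chromosome 13, 49538304 to 50466641). That range bounds neither gene alone, and whether the 2 share reads was not tested.

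Genes of the epidermal ectoderm and its border held the most increases of the 33 lists by number. Of 22 tested, 13 were called higher and 0 lower, with a median log2 fold change of 1.39. The ranking is no test, since the lists were written with earlier results of these data known. The members foxi1, gata2a, klf2b and tfap2c are among the targets that the study picked from these same libraries. tp63, which marks and maintains basal epidermis, stood at 104, 112 and 112 CPM in bmp-overexpressing embryos and at 8.33, 8.0 and 12.4 CPM in uninjected embryos. That was a rise of 3.59 ± 0.23 (limma, adjusted p = 2.3e-13), and no library of one group came near the other. foxi1, a factor of non-neural ectoderm, rose by 1.68 ± 0.13, at 157, 162 and 172 CPM with bmp and 49.7, 55.2 and 48.0 CPM in uninjected embryos. gata2a was at 360.2, 373 and 375 CPM with bmp and 118, 114 and 114 CPM in uninjected embryos, and its rise of 1.69 ± 0.099 varied little between libraries. gata3, a related factor, rose by the smaller 0.63 ± 0.12 (limma, adjusted p = 0.00083).

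The called homeobox genes of the Dlx and Msx families were all low in uninjected embryos. dlx2a was at 19.3, 23.6 and 19.3 CPM with bmp and 0.459, 0.989 and 0.505 CPM in uninjected embryos. dlx3b, which marks the border of the neural plate, was at 11.8, 30.1 and 18.1 CPM with bmp and 2.36, 3.57 and 1.88 CPM in uninjected embryos, with a rise of 2.81 ± 0.49 and wide scatter within the bmp group. msx1a rose by 3.08 ± 0.38 and msx3 by 2.62 ± 0.32 (limma, adjusted p = 6.7e-07 and 4.7e-07). dlx1a had 58, 96 and 99 counts with bmp and 0, 1 and 2 counts without, and its adjusted p of 0.018 passed the threshold only with all 6 libraries (0.0686 to 0.191 with 1 left out). The AP-2 genes tfap2a and tfap2c, which act in epidermis and neural crest, rose by 1.38 ± 0.12 and 1.22 ± 0.11. The Krüppel-like factors klf2a and klf2b rose by 2.5 ± 0.20 and 1.39 ± 0.11, klf2a being at 90.2, 72.8 and 74.9 CPM with bmp and 13.8, 13.6 and 14.9 CPM in uninjected embryos.

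The enveloping layer, the outer covering of the embryo that is set aside before gastrulation, was read from 18 genes. Of these, 0 were called higher and 1 lower, with a median log2 fold change of -0.08. That 1 call was 5.56% of the list, beside 3.15% called over all genes tested. krt5, the keratin gene called lower, was at 1101, 1131 and 1152 CPM with bmp and 1872, 1235 and 1727 CPM in uninjected embryos (limma, adjusted p = 0.0031). krt8 was at 1861, 2145 and 2035 CPM with bmp and 2606, 1840 and 2257 CPM in uninjected embryos and was not called. For this list 7 of the 18 genes had an unadjusted p under 0.05 and limma-trend called 1. Uninjected replicate 2 was lower than the other uninjected libraries for both keratins.

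**Figure D2:**
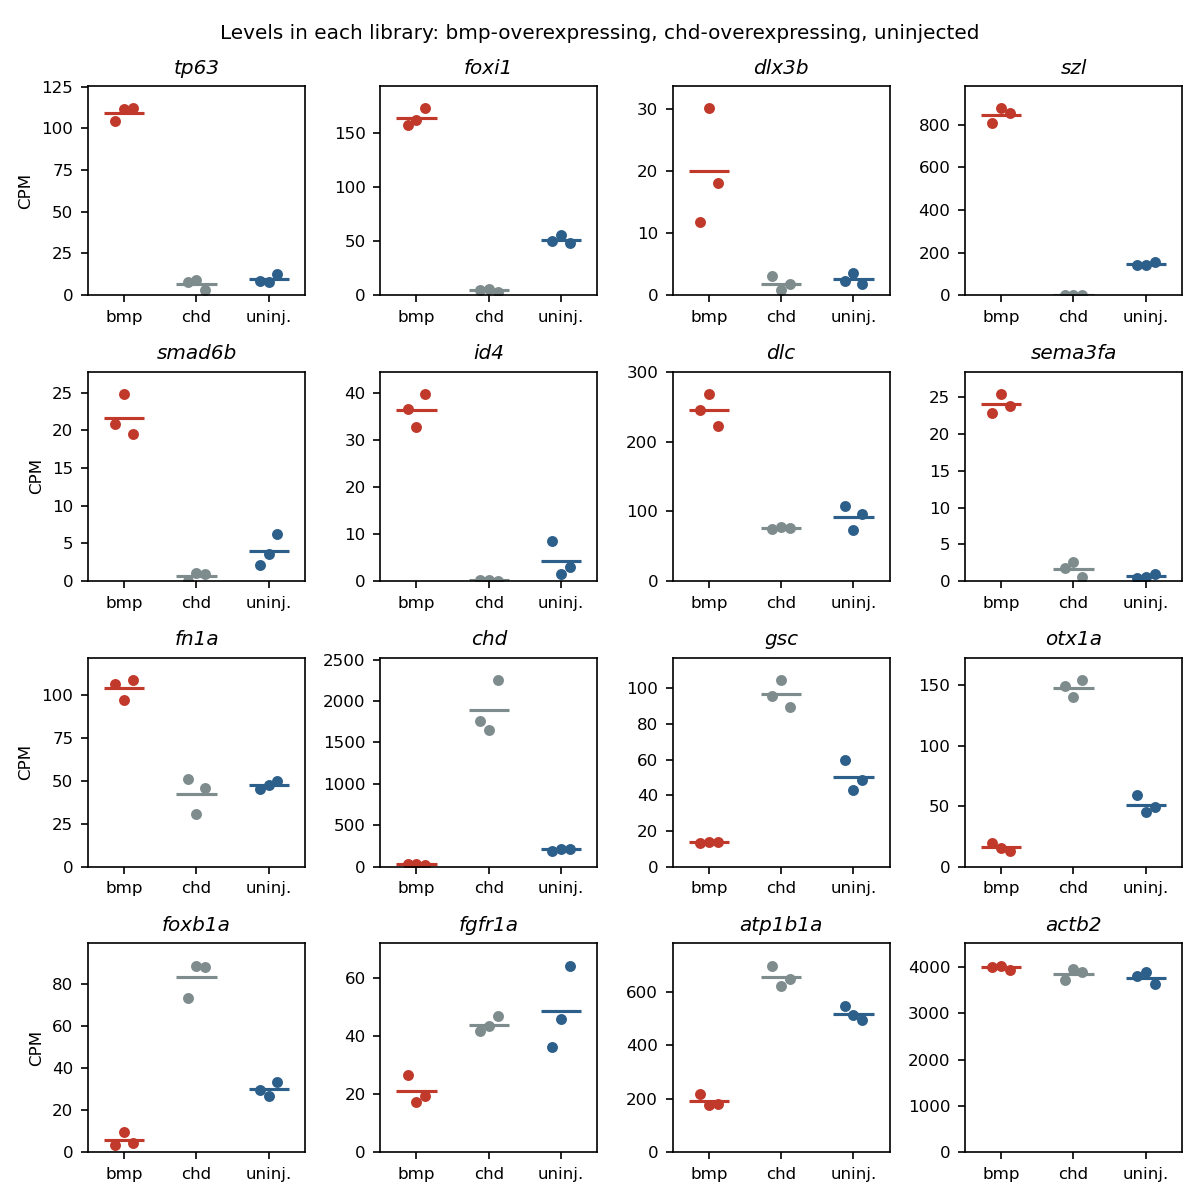
CPM in each library (points) and group mean (line) for 16 genes, with bmp-overexpressing embryos in red, chd-overexpressing in grey and uninjected in blue. tp63, dlc and sema3fa were high with bmp alone, chd, gsc and otx1a were lowest with bmp, and actb2 lay between 3627 and 4024 CPM in the bmp-overexpressing and uninjected libraries.

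Among 13 genes of tail and ventrolateral mesoderm, 7 were called higher and 1 lower, with a median of 0.90. cdx1a, a caudal-type homeobox gene, was at 44.1, 42.0 and 52.6 CPM in bmp-overexpressing embryos, against 3.54, 3.66 and 6.36 CPM in uninjected embryos, and rose by 3.45 ± 0.32. Its relative cdx4 rose by 1.45 ± 0.12, at 270.1, 238 and 223 CPM with bmp and 82.2, 92.6 and 92.3 CPM in uninjected embryos. eve1, a marker of ventral mesoderm and later tail bud, rose by 0.90 ± 0.11 (limma, adjusted p = 6.6e-07). The pan-mesodermal T-box genes ta (brachyury) and tbx16 rose by only 0.33 ± 0.067 and 0.36 ± 0.075, at 869.9, 846 and 908 CPM with bmp and 717, 690 and 700.5 CPM in uninjected embryos for ta. Small as these changes were, the groups did not overlap for either gene. sall4 was the member called lower, at a log2 fold change of -0.33 ± 0.067, which was lost without bmp-overexpressing replicate 2 (limma, adjusted p = 0.0782).

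Early blood and vessel genes had few counts, with 7 of 20 in the table tested and only gata2a, described above, called. drl, an early marker of lateral mesoderm, was at 12.8, 8.79 and 21.0 CPM with bmp and 5.12, 6.19 and 6.07 CPM in uninjected embryos and was not called (limma, adjusted p = 0.063). Of the Hox genes 4 of 49 could be tested and 0 were called by limma or limma-trend, with 0 at an unadjusted p under 0.05. All 4 had positive log2 fold changes (0.88 to 3.34), but 0 Hox genes passed the low-count filter between chd-overexpressing and uninjected embryos. The 4 thus passed only with the bmp libraries counted, which favours positive signs, so no conclusion is drawn from these. The summed level of the 49 was 15.4, 14.5 and 13.1 CPM with bmp, 10.2, 7.62 and 7.19 CPM with chordin and 6.63, 6.58 and 7.22 CPM in uninjected embryos. The bmp sums lay above all others, which was not tested. At these levels a change of the uncalled members was often not detectable.

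Paraxial mesoderm genes showed smaller changes in both directions, 7 higher and 2 lower of 21, median 0.41. The apelin receptor genes aplnra and aplnrb, needed for mesendoderm cell movement, were at log2 fold changes of 0.47 ± 0.12 and 0.51 ± 0.12. fgf8a, an FGF ligand of the margin, was at 67.7, 64.3 and 65.8 CPM with bmp and 49.8, 32.3 and 45.0 CPM in uninjected embryos, a rise of 0.71 ± 0.16. Without uninjected replicate 2 the fgf8a call was lost (limma, adjusted p = 0.159), as was that of aplnrb without uninjected replicate 1 or bmp-overexpressing replicate 1 or 2 (0.0508, 0.114 and 0.134). With chordin fgf8a and aplnrb were also called higher, at 0.77 and 0.6 (limma, adjusted p = 0.013 and 0.0051). Neither was called between bmp- and chd-overexpressing embryos. her7, a segmentation clock gene, rose by 0.71 ± 0.15 (limma, adjusted p = 0.0031), while msgn1, which drives presomitic maturation, and aldh1a2, which makes retinoic acid, were called lower at -0.61 ± 0.18 and -0.63 ± 0.17. Both of those were near the threshold: msgn1 was lost without uninjected replicate 3 or bmp-overexpressing replicate 2 or 3 (0.185, 0.421 and 0.0963), and aldh1a2 without the same libraries (0.111, 0.132 and 0.151).

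Of 25 organizer and axial mesendoderm genes, 11 were called lower and 2 higher, with a median of -0.69. gsc (goosecoid), a homeobox gene of the organizer, was at 13.3, 13.9 and 13.8 CPM in bmp-overexpressing embryos and at 60.0, 43.0 and 48.6 CPM in uninjected embryos. Its log2 fold change was -1.84 ± 0.23, and the bmp libraries were nearly equal to each other. noto, which specifies the notochord, was at 20.9, 16.2 and 15.2 CPM with bmp and 58.6, 44.2 and 50.0 CPM in uninjected embryos, a change of -1.52 ± 0.21 (limma, adjusted p = 6e-06). foxd3 fell furthest in this list, being at 3.07, 1.86 and 0.318 CPM with bmp and 43.8, 31.2 and 26.1 CPM in uninjected embryos (-4.6 ± 0.74). The endoderm and midline factor foxa3 and the LIM homeobox gene lhx1a were lower by less, at -0.79 ± 0.13 and -0.75 ± 0.17. foxa2, a close relative of foxa3, was not called, with 13.2, 8.19 and 10.4 CPM with bmp and 3.48, 5.89 and 6.86 CPM in uninjected embryos.

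The 2 organizer genes that were higher both belong to Nodal signalling, which induces mesendoderm. lft1, a feedback antagonist of Nodal, was at 59.6, 68.8 and 54.2 CPM with bmp and 39.3, 30.4 and 35.5 CPM in uninjected embryos and rose by 0.84 ± 0.16 (limma, adjusted p = 0.0012). The ligand gene ndr1 was at 21.3, 25.4 and 22.9 CPM with bmp and 18.5, 9.46 and 11.1 CPM in uninjected embryos (limma, adjusted p = 0.026), with uninjected replicate 1 close to the bmp range. That call was lost when any library other than uninjected replicate 1 was left out (adjusted p 0.0573 to 0.281). Over 16 genes of Nodal signalling, 3 were higher and 2 lower, median -0.13. The receptor gene acvr1ba rose by 0.55 ± 0.093, the co-receptor gene tdgf1 was lower at -0.50 ± 0.096, and lft2 was not called at 16.9, 24.4 and 29.5 CPM with bmp and 26.9, 30.1 and 25.9 CPM in uninjected embryos.

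By number, neural plate genes held the most decreases of the 33 lists, 13 lower and 2 higher of 37, with a median of -0.55. This ranking too is no test, since the lists were written with earlier results of these data known. The shorter organizer list held 11 lower of 25, with a median of -0.69. otx2, a fore- and midbrain homeobox gene, had 0, 0 and 0 counts in bmp-overexpressing embryos and 24, 122 and 85 counts in uninjected embryos. Taking 3 counts per bmp library as the detection floor, it was at least 19.7-fold lower with bmp, although with this few counts the call was lost when any library other than uninjected replicate 1 was left out (limma, adjusted p = 0.02 with all, 0.0704 to 0.251 without). otx1a, better counted, was at 19.5, 15.4 and 12.9 CPM with bmp and 58.9, 45.3 and 49.4 CPM in uninjected embryos, a log2 fold change of -1.66 ± 0.22. foxb1a, at 3.59, 9.66 and 4.3 CPM with bmp and 29.8, 26.7 and 33.6 CPM in uninjected embryos, and the Iroquois gene irx7, at 17.5, 10.1 and 17.4 CPM with bmp and 59.0, 49.7 and 61.4 CPM in uninjected embryos, were lower in all bmp libraries than in any uninjected one.

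The SoxB1 genes, which mark neural competence, had smaller log2 fold changes than the genes named above. sox2 was at 54.5, 47.4 and 54.5 CPM with bmp and 86.4, 91.8 and 92.7 CPM in uninjected embryos and fell to a log2 fold change of -0.79 ± 0.14. sox19a was at 444, 409.5 and 402 CPM with bmp and 528, 530.3 and 559.8 CPM in uninjected embryos, a change of -0.35 ± 0.079 (limma, adjusted p = 0.0051). sox3 was not called, with 478, 422 and 510.5 CPM with bmp and 475, 584 and 570.5 CPM in uninjected embryos. The pair called higher were cyp26a1, which degrades retinoic acid, with a rise of 0.94 ± 0.13, and elavl3, an RNA-binding protein gene of early neurons, at 30.7, 34.8 and 18.1 CPM with bmp and 10.6, 4.73 and 2.53 CPM in uninjected embryos. With chordin cyp26a1 was also called higher, at 0.73 (limma, adjusted p = 0.0022). It was not called between bmp- and chd-overexpressing embryos.

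**Figure D3:**
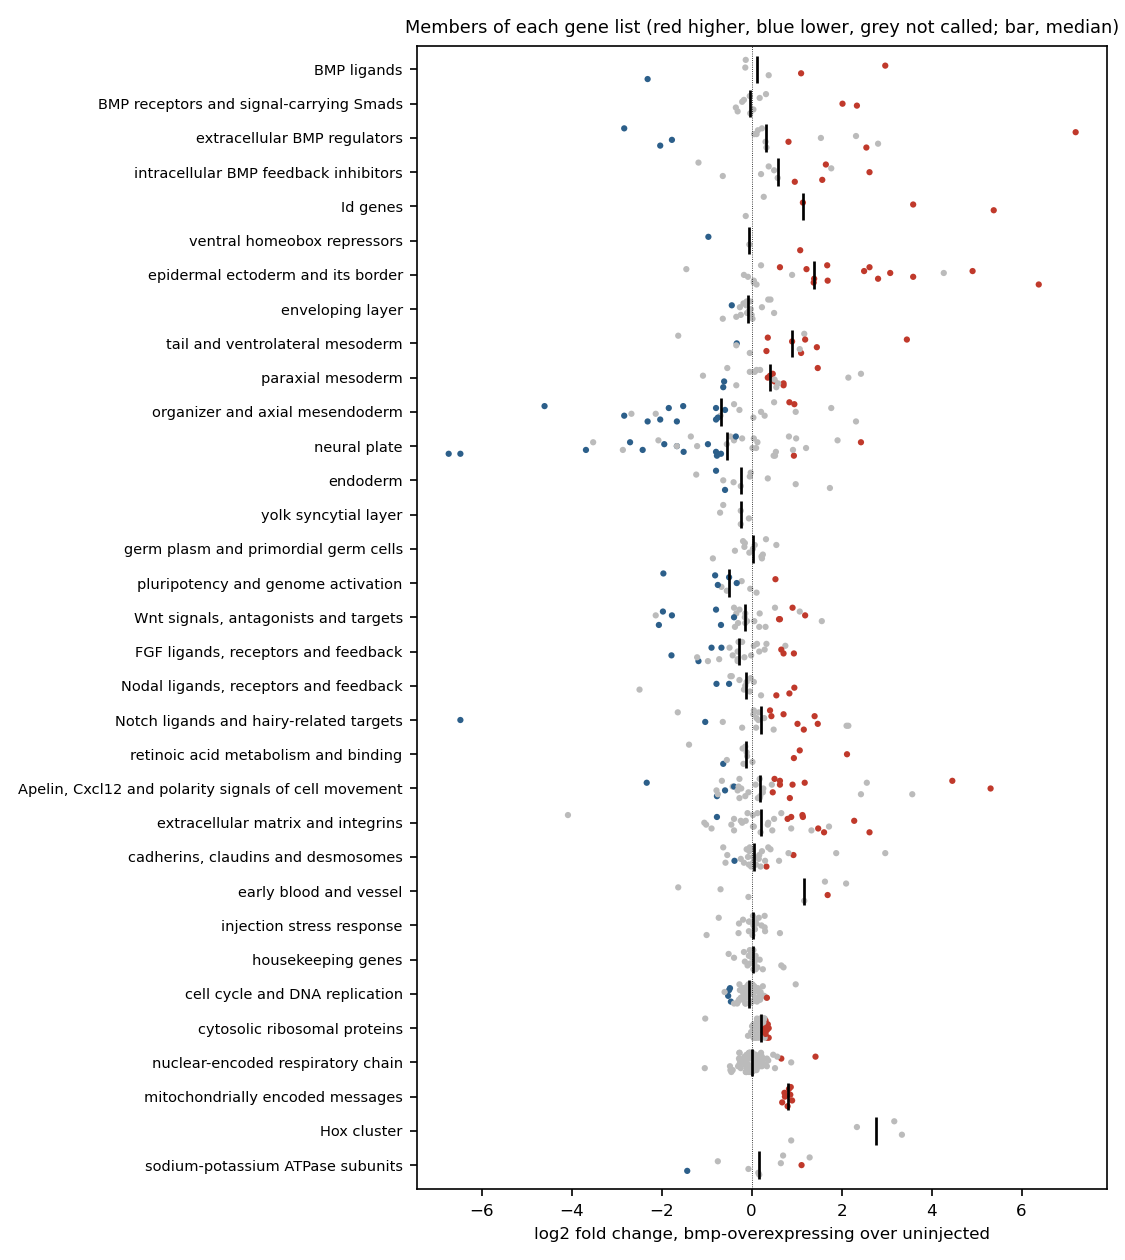
log2 fold change of bmp-overexpressing over uninjected embryos for each tested member of 33 gene lists (points), with the list's median as a bar. Called higher members are red and called lower ones blue. Epidermal genes lay mostly right of 0 (median 1.39), organizer and neural plate genes mostly left (-0.69 and -0.55), and housekeeping genes around 0.03.

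Ligands and receptors of the Notch pathway, in which cells signal to neighbours through Delta proteins, and hairy-related genes were called higher for 7 and lower for 2 of 22. dlc was at 245, 268 and 223 CPM in bmp-overexpressing embryos and 107, 73.5 and 96.2 CPM in uninjected embryos, a rise of 1.47 ± 0.12. dlb was at 33.0, 46.8 and 24.4 CPM with bmp and 15.3, 11.5 and 13.2 CPM in uninjected embryos and rose by 1.40 ± 0.25 (limma, adjusted p = 0.00027). dld, at 209, 196 and 187 CPM with bmp and 137, 142 and 174 CPM in uninjected embryos, rose by 0.41 ± 0.11. The hairy-related genes hey1 and hes6 rose by 1.02 ± 0.22 and 0.44 ± 0.089, without overlap between groups. her3 was at 6, 1 and 0 counts with bmp and 158, 238 and 181 counts in uninjected embryos, and her8a fell to -1.03 ± 0.17. The her3 call was lost without uninjected replicate 3 or any bmp library (limma, adjusted p 0.0602 to 0.187).

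In the FGF pathway, 3 of 25 genes were higher and 4 lower, median -0.29, and receptors went opposite ways. fgfr4 was at 436, 427 and 424 CPM in bmp-overexpressing embryos and 256, 269 and 296 CPM in uninjected embryos, a rise of 0.66 ± 0.087. fgfr1a was at 26.8, 17.2 and 19.4 CPM with bmp and 36.1, 46.0 and 64.3 CPM in uninjected embryos, a log2 fold change of -1.18 ± 0.22 (limma, adjusted p = 0.00069). The feedback inhibitors spry2 and dusp4, which FGF signalling itself induces, were lower at -0.67 ± 0.15 and -0.89 ± 0.19. etv4, a transcriptional target of FGF, was not called, at 159, 158 and 137 CPM with bmp and 154, 209 and 195 CPM in uninjected embryos. spred2b, an inhibitor in the same cascade, was higher at 0.94 ± 0.21.

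Wnt signals, antagonists and targets gave 4 higher and 6 lower of 27, median -0.14. wnt8-2, one of the ventral and marginal Wnt8 ligand messages, was at 209, 209 and 143 CPM with bmp and 103, 68.7 and 82.0 CPM in uninjected embryos and rose by 1.19 ± 0.14. Frizzled receptor genes that are expressed anteriorly were lower, fzd8a at 15.7, 13.5 and 6.77 CPM with bmp and 52.9, 50.4 and 41.7 CPM in uninjected embryos (-2.06 ± 0.26) and fzd8b at -1.97 ± 0.29. sfrp1a, a secreted Wnt antagonist, fell to -1.77 ± 0.25 and the Wnt target sp5l to -0.79 ± 0.13 (limma, adjusted p = 1e-05 and 6.2e-05). Another antagonist, frzb, was at 1.1, 4.6 and 1.11 CPM with bmp and 5.45, 11.1 and 8.66 CPM in uninjected embryos and narrowly missed the threshold (limma, adjusted p = 0.053). tle3a, a Groucho co-repressor, rose by 0.61 ± 0.12.

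Signals of cell movement gave 9 higher and 4 lower of 35. Among the steepest were secreted semaphorins, guidance cues: sema3fa was at 22.8, 25.4 and 23.9 CPM with bmp and 0.459, 0.516 and 0.939 CPM in uninjected embryos, and sema3d at 45.2, 40.8 and 33.0 CPM with bmp and 0.262, 2.97 and 5.56 CPM in uninjected embryos. The log2 fold changes were 5.31 ± 0.82 and 4.46 ± 0.59. The chemokine gene cxcl12b was at 34.7, 22.2 and 28.9 CPM with bmp and 14.1, 10.9 and 13.1 CPM in uninjected embryos and rose by 1.18 ± 0.24, and its scavenger receptor ackr3b rose by 0.85 ± 0.18. The signalling receptor of the same chemokine family, cxcr4a, was lower, at 213, 215 and 176 CPM with bmp and 315, 304 and 291 CPM in uninjected embryos (-0.59 ± 0.099). apela, a ligand of the apelin receptors, rose by 0.63 ± 0.098 (limma, adjusted p = 4.5e-05).

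Matrix genes were higher for 8 and lower for 1 of 33. fn1a, a fibronectin, was at 107, 97.3 and 109 CPM in bmp-overexpressing embryos and 45.3, 47.9 and 50.3 CPM in uninjected embryos, a rise of 1.13 ± 0.14. The laminin chains lama1 and lamb1a rose by 0.88 ± 0.12 and 0.80 ± 0.096, lamb1a being at 432, 486 and 382 CPM with bmp and 247, 235 and 272 CPM in uninjected embryos. col1a1a, a fibrillar collagen, was at 13.2, 17.1 and 22.7 CPM with bmp and 4.00, 1.85 and 3.75 CPM in uninjected embryos, and serpinh1b, a collagen chaperone, rose by 1.14 ± 0.13. Cadherins, claudins and desmosomes gave 2 higher and 1 lower of 31 (9.68%, beside 3.15% over all genes tested), with a median of 0.05. Each of these calls could be lost by leaving out 1 library. cdh1, called higher, was lost without uninjected replicate 2 or any bmp library (limma, adjusted p 0.0852 to 0.494). ctnna1, called lower, was lost without uninjected replicate 2 or 3 or any bmp library (0.0504 to 0.32). ctnnd2b, called higher, was lost without bmp-overexpressing replicate 2 (0.0676). The ctnna1 locus range overlaps that of wu:fc25h09, and shared reads were not tested. In the sodium-potassium ATPase, atp1b1a was lower, at 216, 175 and 182 CPM with bmp and 544, 514 and 492 CPM in uninjected embryos (-1.43 ± 0.095), and atp1b3a, another beta subunit, higher at 1.11 ± 0.13.

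Pluripotency and genome activation factors were called lower for 5 and higher for 1 of 11. mycn was at 11.4, 8.79 and 8.20 CPM with bmp and 36.7, 34.8 and 40.6 CPM in uninjected embryos, a log2 fold change of -1.96 ± 0.26, while pou5f3 (Oct4 homologue) was at 1448, 1427 and 1446 CPM with bmp and 1395, 1590 and 1417 CPM in uninjected embryos and nanog was not called at -0.22 ± 0.11. lin28a, an RNA-binding regulator of let-7, rose by 0.53 ± 0.099. Of 11 endoderm genes 2 were lower and 0 higher, and sox32, the endoderm determinant, missed the threshold at -0.40 ± 0.12 (limma, adjusted p = 0.059). Germ plasm and yolk syncytial layer genes had 0 calls of 13 and of 5 with limma and with limma-trend, and 2 and 3 genes at an unadjusted p under 0.05. With 3.15% called over all genes tested, lists this short would hold few calls in any case. ddx4 (vasa) was at 192, 195 and 221 CPM with bmp and 248, 201 and 246 CPM in uninjected embryos.

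Of 24 housekeeping genes 0 were called with limma or limma-trend and 5 had an unadjusted p under 0.05, with a median log2 fold change of 0.03. actb2 was at 3998, 4024 and 3933 CPM in bmp-overexpressing embryos and 3791, 3885 and 3627 CPM in uninjected embryos, and eef1a1l1 at 12580, 12750 and 12620 CPM with bmp and 12750, 13190 and 13230 CPM in uninjected embryos. Of 21 genes of the injection stress response 0 were called by either tool, with 4 at an unadjusted p under 0.05. Over all genes tested 3.15% were called, so lists of this size would hold few calls in any case. Cell cycle and replication genes gave 1 higher and 4 lower of 54, median -0.05. The 4 were mcm2, mcm3, mcm6 and cdt1, which license replication origins, at log2 fold changes of -0.46, -0.48, -0.50 and -0.52. The locus range of mcm3 overlaps that of stmn4, and whether the pair shares reads was not tested. Each of the mcm genes lost its call without bmp-overexpressing replicate 2 (limma, adjusted p = 0.0978, 0.192 and 0.123), mcm2 also without bmp-overexpressing replicate 1 (0.0896), and cdt1 without bmp-overexpressing replicate 1 or uninjected replicate 2 (0.0796 and 0.118).

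Messages of the mitochondrial genome were all called higher with bmp, 8 of 8, with a median of 0.81. With chordin 1 of the 8 was called higher, CYTB (log2 fold change 0.66, limma, adjusted p = 0.0346), and the median was 0.51, the uninjected libraries being shared. Their summed level with chordin, 65480, 42710 and 32870 CPM, spanned the bmp range. COX1, a subunit of cytochrome oxidase, was at 32020, 29440 and 24160 CPM with bmp and at 23550, 12270 and 16670 CPM in uninjected embryos. CYTB was at 8531, 8189 and 7281 CPM with bmp and 6668, 3408 and 3853 CPM in uninjected embryos. Uninjected replicate 1 was the highest of its group in both and lay nearest to the bmp libraries. Nuclear-encoded respiratory chain genes gave 2 higher of 81 and a median of 0.02, the 2 being uqcrc1, a core protein of complex III, at 1.42 ± 0.15, and atp5b, an ATP synthase subunit, at 0.66 ± 0.12. Over all genes tested 1.72% were called higher. Cytosolic ribosomal protein genes were called higher for 11 of 82 (13.4%) and lower for 0, and 79 of the 82 had a positive log2 fold change, with a median of 0.20. By level, 4.61% of all genes at 100 to 1000 CPM and 17.7% of those at 1000 CPM and over were called higher. Neither share leaves out the genes of these lists. The upper bin held 113 genes, COX1 and CYTB, both called higher, among them. Their summed level was 58060, 52580 and 56630 CPM with bmp against 53640, 44760 and 49440 CPM in uninjected embryos, so uninjected replicate 1 lay within the bmp range. With chordin 0 of the 82 were called, and their median was 0.16.

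**Figure D4:**
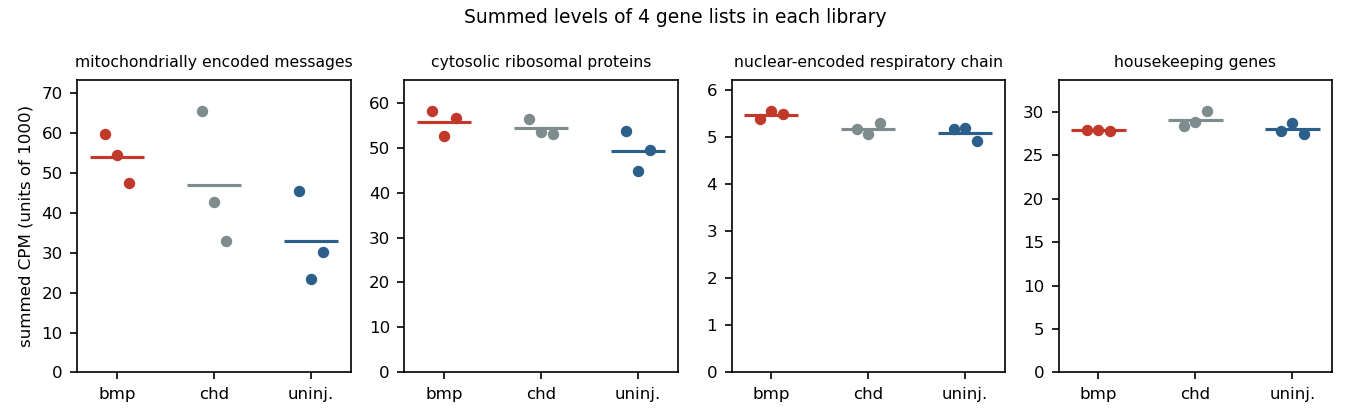
Summed CPM, in units of 1000, of 4 gene lists in each library (points) with group means (lines), bmp-overexpressing, chd-overexpressing and uninjected. The mitochondrial sum was 47490 to 59800 CPM with bmp and 23430 to 45490 CPM in uninjected embryos, while housekeeping sums overlapped.

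A gene was counted as changed with bmp and level with chordin when it was called with bmp, was not called with chordin, had a 95% interval of its chordin log2 fold change within -1 to 1, and was called between bmp- and chd-overexpressing embryos. Both comparisons share the uninjected libraries. Over all genes tested, 0.591% were called higher and 0.301% lower with chordin, and 2.19% higher and 2.85% lower in bmp- than in chd-overexpressing embryos. Of the 288 higher genes, 277 could be tested with chordin: 23 were called lower there, 4 called higher and 250 not called. Some of the 250 were far lower with chordin, at wide intervals. The chordin log2 fold changes were -5.67 for smad1 (interval -8.93 to -2.4), -5.17 for cdx1a (-8.38 to -1.96) and -4.41 for id4 (-8.1 to -0.71). For these genes every chd library stood below every uninjected one. Others did not fall, such as sema3fa at 0.87 (-1.24 to 2.99). The interval was narrow enough for 169 of the 250, and 117 (0.697% of the genes tested) met all conditions, bmp2b itself among them. Of the 240 lower genes, 41 were higher with chordin, 3 lower and 196 not called, and 138 (0.822%) met all conditions. Being level with chordin means within 2-fold at this precision, not that chordin had no effect. The bound was wider than the median log2 fold change with bmp in the class, 0.86 for higher and -0.79 for lower genes. Genes with an opposite chordin change of similar size could therefore enter the class. Without the interval condition the higher count was 177, and with an interval of ± 0.58 it was 64.

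The higher genes of this class were called with bmp at moderate size, with a median log2 fold change of 0.86. syn1, a synaptic vesicle protein gene, was at 103, 117 and 105 CPM in bmp-overexpressing, 9.84, 12.3 and 12.4 CPM in chd-overexpressing and 16.7, 11.6 and 10.2 CPM in uninjected embryos. Its log2 fold change was 3.12 ± 0.21 with bmp and -0.13 with chordin (95% interval -0.70 to 0.45). tbx2b, a T-box repressor, was at 53.1, 56.7 and 52.3 CPM with bmp, 10.4, 10.8 and 10.0 CPM with chordin and 13.7, 10.9 and 9.17 CPM uninjected. The bmp libraries stood alone, and the other libraries overlapped. syne2b, a nuclear envelope protein gene, had a log2 fold change of 2.30 ± 0.24 with bmp and 0.00 with chordin. For rab3il1, an exchange factor for a secretory GTPase, the values were 1.84 ± 0.19 and -0.07.

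Others of the 10 strongest calls, bmp2b not counted, were well expressed without injection. nhsl1b, needed for the migration of facial motor neurons, was at 306, 282 and 269 CPM with bmp, 93.6, 104 and 119 CPM with chordin and 100.2, 91.5 and 108 CPM uninjected. aif1l, an actin-bundling protein gene, changed by less, 0.82 ± 0.067, but its libraries were tight, at 1152, 1137 and 1132 CPM with bmp and 602, 683 and 659 CPM in uninjected embryos. tagln2, another actin-binding protein gene, rose by 1.29 ± 0.12 with bmp, against 0.00 with chordin. styk1, a kinase-like gene, rose by 1.03 ± 0.11. It leaned lower with chordin without being called, at -0.44 (interval -0.7 to -0.19), close to the -0.46 of bmp2b (-0.72 to -0.19). For both genes every chd library stood below every uninjected one. The epidermal factor tfap2a and the Notch ligand dlc completed this set, with chordin values of -0.16 and -0.24.

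Of all 288 higher genes 117 were in this class. By list, 6 of the 7 higher Notch and hairy-related genes were in this class (dla, dlb, dlc, hey1, her7 and hes6), as were 4 of the 8 higher matrix genes (fn1a, lama1, lamb1a and serpinh1b). Of the 13 higher epidermal genes 2 were, tfap2a and gata3, and of the 4 higher intracellular inhibitors 0. Differences between lists were not tested. Among the Notch genes of the class, hes6 leaned the opposite way with chordin without being called. Its log2 fold change was -0.39 there (interval -0.59 to -0.18), beside 0.44 with bmp. The chordin intervals of dla, dlb, dlc, hey1 and her7 included 0. Of the 4 matrix genes, serpinh1b leaned higher with chordin, at 0.47 (interval 0.12 to 0.83), and lama1 lower, at -0.27 (-0.49 to -0.05). The interval of fn1a included 0, and that of lamb1a reached 0 as rounded (-0.41 to 0). In the tail and ventrolateral list wnt8-2, ta and tbx16 qualified, with chordin log2 fold changes of -0.21, -0.15 and -0.13. The co-activator gene yap1 of the Hippo pathway, chosen after its values were seen, was at 269, 251 and 297 CPM with bmp and 163, 179.9 and 206 CPM in uninjected embryos, a rise of 0.59 ± 0.10 with -0.03 for chordin. tp63, although high with bmp alone in the plot of levels by library, did not qualify, since its chordin interval of -1.53 to 0.04 was too wide. Of the higher genes not called with chordin, 81 failed in this way and 52 more for want of a call between bmp and chordin. dla was the weakest of the Notch genes, its call being lost without uninjected replicate 1 or 2 or bmp-overexpressing replicate 1 or 3 (limma, adjusted p 0.0536 to 0.197).

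**Figure D5:**
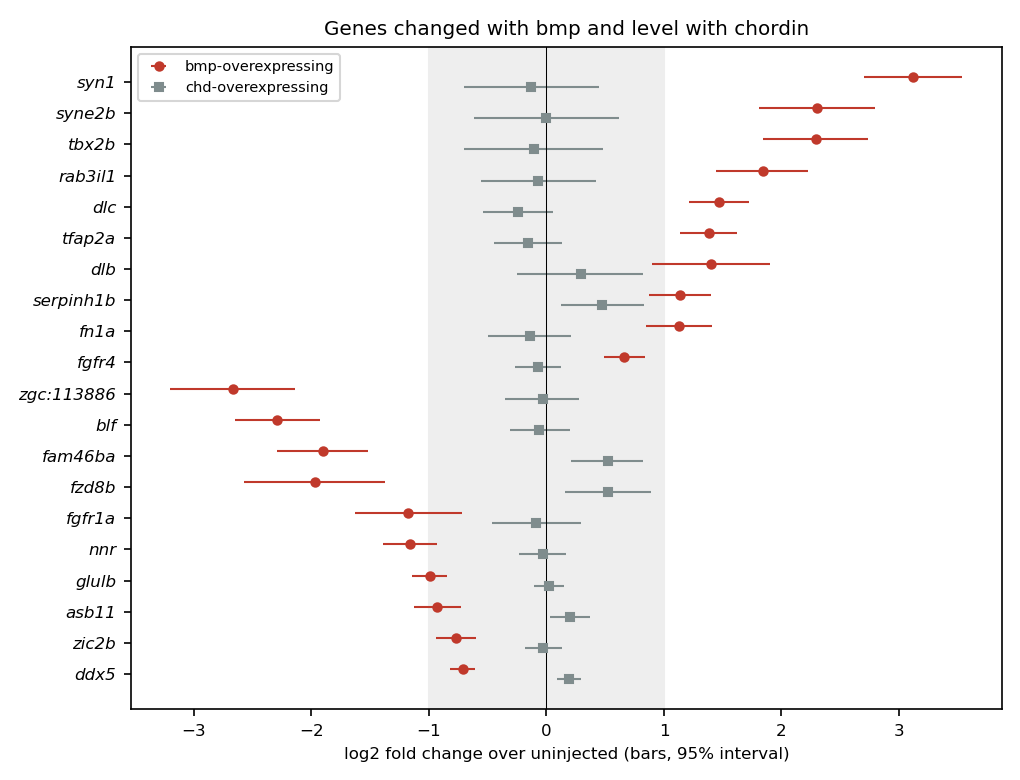
log2 fold change over uninjected embryos with 95% intervals for 20 genes changed with bmp and level with chordin, bmp-overexpressing in red and chd-overexpressing in grey. The grey band spans -1 to 1. syn1 was at 3.12 with bmp and -0.13 with chordin, and zgc:113886 at -2.67 and -0.03.

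The lower genes of the class had a median of 78.4 CPM in uninjected embryos and the higher ones of 54.8 CPM, and the lower genes a median log2 fold change of -0.79. ddx5, an RNA helicase gene, was at 1553, 1620 and 1545 CPM in bmp-overexpressing, 2824, 3191 and 2924 CPM in chd-overexpressing and 2614, 2623 and 2552 CPM in uninjected embryos. Its change of -0.71 ± 0.05 was small and very even across libraries. ddx5 leaned higher with chordin without being called, at 0.19 (interval 0.09 to 0.29), every chd library standing above every uninjected one. glulb, a glutamine synthetase gene, was at 526, 459 and 527 CPM with bmp, 999, 1046 and 1021 CPM with chordin and 1002, 1023 and 986 CPM uninjected. blf, a zinc finger gene needed for gastrulation movements, was at 27.4, 20.6 and 39.3 CPM with bmp, 118, 116 and 155 CPM with chordin and 139, 142 and 127 CPM uninjected, a log2 fold change of -2.29 ± 0.18. The chordin value was -0.06.

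The RNA-binding protein gene hnrnpa0b was lower, at a log2 fold change of -0.42 ± 0.044, as was the small heat-shock protein gene hspb1 (-0.65 ± 0.07), at 860.2, 935 and 1017 CPM with bmp and 1347, 1613 and 1436 CPM in uninjected embryos. With chordin hnrnpa0b leaned higher without being called, at 0.14 (interval 0.04 to 0.23). nnr fell to -1.16 ± 0.11 with bmp, against -0.03 with chordin. fam46ba and asb11, an ubiquitin ligase subunit that acts on Delta in zebrafish, were at -1.90 ± 0.19 and -0.93 ± 0.096. With chordin their log2 fold changes were 0.52 (interval 0.21 to 0.82) and 0.2 (0.03 to 0.37), so both leaned higher there without being called. The chd libraries of fam46ba, at 86.8, 101 and 136 CPM, all stood above the uninjected ones, at 79.0, 68.6 and 82.7 CPM. Those of asb11 overlapped the uninjected ones. zgc:113886 was at 9.95, 10.1 and 7.72 CPM with bmp and 55.6, 68.9 and 51.3 CPM in uninjected embryos. Of all 240 lower genes 138 were in the class. In the lists, all 4 lower FGF genes were in the class (fgfr1a, spry2, spry4 and dusp4), the spry4 call being lost without uninjected replicate 2 or bmp-overexpressing replicate 1 or 3 (limma, adjusted p 0.0563, 0.139 and 0.0612). With chordin dusp4 leaned higher, at 0.48 (interval 0.14 to 0.82), while the intervals of fgfr1a, spry2 and spry4 included 0. Of the 13 lower neural plate genes 2 were, zic2b and tcf7l1a, at -0.77 ± 0.084 and -0.68 ± 0.15, and of the 11 lower organizer genes 0, differences between lists again being untested. The chordin values of zic2b and tcf7l1a were -0.03 and 0.36, the interval of tcf7l1a (0.09 to 0.62) excluding 0.

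The steepest changes of the whole response were at low levels. Besides nog2 and dlx1a, the unnamed locus LOC103910139 had 34, 55 and 72 counts in bmp-overexpressing embryos and 0, 0 and 0 counts in uninjected embryos, at least 21.9-fold higher by the floor of 3 counts per library. Its call was lost with any 1 of the uninjected libraries left out (limma, adjusted p 0.0524 to 0.136). vip, which encodes a secreted neuropeptide, was at 24.9, 21.3 and 26.4 CPM with bmp and 0.197, 0.774 and 0.722 CPM in uninjected embryos, a rise of 5.47 ± 0.93. lgals1l1, a galectin, was at 15.7, 11.3 and 15.3 CPM with bmp and 0.197, 0.172 and 1.37 CPM in uninjected embryos. On the lower side, irx1b was at 2.12, 1.67 and 0.239 CPM with bmp and 13.1, 14.8 and 12.8 CPM in uninjected embryos, and the unnamed si:ch73-299h12.3 at 1.39, 0.933 and 1.43 CPM with bmp and 15, 28.6 and 22.7 CPM in uninjected embryos.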

How the data were processed

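Poly(A) RNA was sequenced from 9 samples of 10 pooled embryos. Per the labels and the study's methods, the authors aligned unstranded reads to GRCz10 with STAR 2.4.1b, and the deposited values are raw read counts of genes, written with digit separators. The tables' own fold changes, p-values and calls (edgeR, DESeq, Cuffdiff) were not used. Separators were stripped. Columns shared by tables held identical counts. Of 41977 rows 28260 had counts, 167 of these joining several genes and 291 carrying a repeated name, which were counted but not named.

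The low-count filter asked for 15 counts over the libraries and, in 3 or more of them, a CPM equal to 10 counts in a library of median depth. The genes left were fitted with limma 3.58.1 (voom, R 4.3.3) after TMM scaling (trims of 30% and 5%). Each fit held the 2 groups compared, and p-values were adjusted over all genes tested. Intervals are at 95%. Because of the separators the columns are not recorded as counts, so no count-model tool was used. The fit was tested on simulated counts. Its first passing condition, on the share of all simulated 4-fold changes called, was narrowly missed through genes with few counts, and was replaced after that run by one on well-counted genes, which it met. Over all genes in that test, the share of false calls was slightly above the nominal threshold, and many 2-fold changes were missed, chiefly at low counts.

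The genes named are the injected genes, the 10 largest changes in each direction at a mean of at least 1 CPM without overlap between groups, the 10 strongest calls in each direction among genes level with chordin (bmp2b not counted), and members of 33 written lists, plus those said to be chosen after their values were seen. A few genes that these rules name are not reported here. Members and lists were chosen with earlier results of these data known. Alternatives were no low-count filter, RLE factors, all 3 groups in one fit, a replicate block, limma-trend, no mitochondrial messages, other thresholds and each library left out. Tables and plots were made with the R package for data frames (version 1.17.8), pandas 2.3.3 and matplotlib 3.10.9 in Python 3.11.15.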

Additional observations from a re-analysis of the deposited data

How the results depend on the processing

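Of the 288 higher and 240 lower genes, 137 and 88 also had at least a 2-fold change. Leaving out 1 library gave 203 to 409 higher and 160 to 394 lower genes, the most without uninjected replicate 1, which had the highest mitochondrial share of its group. Genes changed with bmp and level with chordin numbered 82 to 126 higher and 97 to 167 lower in the same way. With the chordin interval held within 0.58 there were 64 higher, and with no interval condition 177. Without a low-count filter 365 and 259 genes were called, with RLE factors 283 and 247, with all 3 groups 298 and 262, with limma-trend 290 and 262, and at an adjusted p under 0.01 199 and 162. Among the called genes refitted one by one, those that the naming rules pick or the text names, no direction turned. Among such genes not called, leaving out 1 library gave log2 fold changes of -0.27 to 0.02 for krt8, -0.32 to 0.12 for bmp7a and -0.07 to 0.04 for pou5f3, of either sign. The cause was not tested.

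Samples with the same number deviated together only weakly (r = 0.027, 0.035 and 0.011), so the numbers were not taken to pair them, although each correlated best with its own number. With a replicate block 389 higher and 332 lower genes were called, 286 and 239 of them shared with the fit without it. The class level with chordin then held 134 and 178 genes. With 3 libraries a group and 12536836 to 22372856 counts in these 6, changes of genes at a few CPM were often not detectable.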

Other observations

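The genes here were chosen after their values were seen. The T-box gene tbx2a, a paralogue of tbx2b, was at 16.2, 14.9 and 22.6 CPM in bmp-overexpressing embryos and 0.197, 0.688 and 0.433 CPM in uninjected embryos, and tbx3a of the same subfamily at 7.17, 11.9 and 8.68 CPM with bmp and 1.44, 1.16 and 2.53 CPM in uninjected embryos. The log2 fold changes were 5.26 ± 1.04 and 2.59 ± 0.55 (limma, adjusted p = 0.0012 and 0.003). vipr1a, a receptor gene for the neuropeptide encoded by vip, rose by 0.88 ± 0.14, at 84.5, 99.7 and 98.3 CPM with bmp and 51.2, 51.6 and 50.9 CPM in uninjected embryos. dnmt3bb.1, a de novo DNA methyltransferase, was at 154, 172 and 214 CPM with bmp and 33.7, 45.9 and 47.8 CPM in uninjected embryos, with a locus that overlaps another. apoc1l, an apolipoprotein gene, was at 2045, 1750 and 1760 CPM with bmp and 639.7, 623 and 752 CPM in uninjected embryos.

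Among decreases, stm (starmaker), known for its part in otolith formation, was at 541, 517 and 452 CPM with bmp and 1301, 1190 and 1304 CPM in uninjected embryos, a log2 fold change of -1.31 ± 0.074 with no overlap between groups. ism1, a secreted isthmin, was at 43.2, 67.3 and 34.5 CPM with bmp and 137, 148 and 162 CPM in uninjected embryos. snai2, a zinc finger gene of the Snail family, was at 26.6, 18.4 and 33.9 CPM with bmp and 94.7, 81.9 and 64.4 CPM in uninjected embryos (-1.66 ± 0.20) and at 0.14 with chordin. rgma, a co-receptor for BMPs in other vertebrates, was at 24.5, 24.1 and 18.2 CPM with bmp and 63.6, 54.4 and 53.5 CPM in uninjected embryos (limma, adjusted p = 8e-06). With chordin stm, ism1 and rgma were called higher, at log2 fold changes of 0.66, 0.72 and 0.57 (limma, adjusted p = 4.07e-08, 0.00021 and 0.0393).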
